A study of Homo sapiens with 9 samples.

Results

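The SR splicing factors described here are 10 genes, SRSF1 to SRSF7, SRSF9, SRSF10 and SRSF11, taken by symbol from a table of 58037 genes. The family was chosen by measured values, since lower RPKM of its genes under both treatments was already known from this table. RNA sequencing had been run on 3 established human breast cancer cell lines described as triple-negative: MDA-MB-231, MDA-MB-436 as well as MDA-MB-453, the order in which 3 values of a group are given below. Each of them gave 1 library labelled GSK343 (a small-molecule inhibitor of the histone methyltransferase EZH2), 1 labelled shEZH2 (by its name, a short hairpin RNA against the EZH2 transcript) and 1 control. That makes 3 libraries in a group and 9 in all. The sample labels call the controls untreated, whereas the headers of the table call them shControl, so whether they carried a control hairpin is not settled. The sources used here give neither dose nor time of treatment. The lines served as replicates, so the errors below say nothing of the spread between cultures of a line.

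SR proteins are RNA-binding proteins of the nucleus. They bind short enhancer sequences in exons through an RNA recognition motif and recruit the splicing machinery through a tail rich in alternating arginine and serine residues. Kinases of the SRPK and CLK families phosphorylate that tail, which sets where the proteins reside and whether they are active. Most SR genes limit their own output by splicing their transcripts into forms with a premature stop codon, which nonsense-mediated decay removes.

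All 10 members had at least 1 transcript annotated as a target of nonsense-mediated decay in GENCODE release 29, against 42.8% of 11330 tested protein-coding genes. Retained-intron transcripts were annotated for 8 members and 57.8% of the tested coding genes. The expression values sum over all transcripts of a gene, so productive and unproductive forms could not be told apart.

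The arginine-serine tail that defines the family is visible in the coding sequences. The stretches below are the 30 codons with the most adjacent arginine and serine codons in SRSF1 (codons 203 to 232), SRSF2 (127 to 156) and SRSF9 (171 to 200), read from GENCODE release 29 transcripts. They are shown because SRSF1 and SRSF2 had the largest differences from control and SRSF9 the smallest for the mean of both labels. Capitals mark codons that belong to an arginine-serine or serine-arginine pair.
SRSF1: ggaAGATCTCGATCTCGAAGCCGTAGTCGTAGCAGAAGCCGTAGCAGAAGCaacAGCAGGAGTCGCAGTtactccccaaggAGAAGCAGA
SRSF2: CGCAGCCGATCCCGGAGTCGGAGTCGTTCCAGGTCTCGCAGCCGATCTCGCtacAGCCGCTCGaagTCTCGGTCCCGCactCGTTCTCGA
SRSF9: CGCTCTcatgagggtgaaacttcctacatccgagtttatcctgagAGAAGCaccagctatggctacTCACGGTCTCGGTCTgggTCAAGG
The stretch held 21 such pairs in SRSF1 and 23 in SRSF2, but 7 in SRSF9. In the other members it held from 12 (SRSF3 and SRSF10) to 23 (SRSF5). Whether the number of pairs goes with the difference from control was not tested. Over the whole coding sequence SRSF9 had 9 pairs in 221 codons and SRSF2 had 52 in the same number of codons. SRSF4 had the most pairs, 113 in 494 codons.

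Sequence before the gene start was read for 9 of the 10 members from RefSeq (GRCh38.p14), all but SRSF2. Those of SRSF1, SRSF3 and SRSF6 are printed because these genes had lower values than control under at least 1 of the labels by the test given below. They run 5′ to 3′ on the gene's strand and end where the start annotated by RefSeq or GENCODE, whichever lies further upstream, begins. The first is chr17:58007347-58007496 (minus strand), the second chr6:36594112-36594352 (plus strand) and the third chr20:43457646-43457895 (plus strand). Capitals mark, on either strand, the TATA box letters TATAAA, the CAAT box letters CCAAT, the GC box letters GGGCGG, the E-box letters CACGTG and the ETS core letters TTCCGG, and TTCCGG and CCAAT can each overlap their own reverse complement.
SRSF1: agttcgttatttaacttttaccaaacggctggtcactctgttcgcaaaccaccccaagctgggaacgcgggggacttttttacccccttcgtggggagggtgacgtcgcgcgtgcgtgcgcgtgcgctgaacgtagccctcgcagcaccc
SRSF3: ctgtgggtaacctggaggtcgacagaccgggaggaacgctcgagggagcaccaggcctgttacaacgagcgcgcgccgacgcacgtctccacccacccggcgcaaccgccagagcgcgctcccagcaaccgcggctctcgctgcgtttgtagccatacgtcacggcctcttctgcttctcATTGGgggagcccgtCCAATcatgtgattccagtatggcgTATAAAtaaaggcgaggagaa
SRSF6: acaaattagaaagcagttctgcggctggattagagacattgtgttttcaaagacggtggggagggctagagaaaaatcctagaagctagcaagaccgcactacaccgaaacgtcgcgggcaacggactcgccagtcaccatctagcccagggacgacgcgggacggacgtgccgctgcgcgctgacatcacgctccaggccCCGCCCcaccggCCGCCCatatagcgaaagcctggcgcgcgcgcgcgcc
The 3 stretches do not share any of these motifs. Of the 9 members with a 250-base window, SRSF3 alone held TATAAA and CCAAT, which occur in 10.7% and 32.01% of 35116 such windows. GGGCGG was in 3 of the 9 windows (SRSF4, SRSF6 and SRSF7) and in 42.6% of all windows. TTCCGG was in 2 (SRSF4 and SRSF5) and in 14.5% of all. CACGTG was in 0 of the 9 and in 6.34% of all. These are matches of letters in a window.

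Some features of the libraries bear on every value. Between 14757000 and 18283000 reads stood behind each library, and between 1045 and 6579 behind each value of the 9 members whose gene model had the same version in GENCODE release 29, so counting error was small. EZH2, the gene both agents aim at, was lowest in the libraries labelled GSK343 (5.77 to 7.99 RPKM) and higher in those labelled shEZH2 (16.4, 37.4 and 16.2 RPKM), against 27.4, 38.9 and 42.3 RPKM in controls. In MDA-MB-436 the shEZH2-labelled library was thus close to its control. The log2 fold change by limma was -2.19 ± 0.47 under GSK343 (adjusted p = 0.000424) and -0.70 ± 0.47 under shEZH2, which did not pass (adjusted p = 0.0597). That order runs against the labels, since a hairpin and not an enzyme inhibitor acts on the transcript, so groups are named by their labels throughout. Of 12 genes chosen as markers of MDA-MB-453, 0 were highest in the libraries labelled with that line in all 3 conditions. VIM, a mesenchymal filament protein, was between 210 and 401 RPKM there, against 212 to 341 RPKM in the other lines. The libraries labelled MDA-MB-453 thus go against their label, and each call of a member below is also given without them. Among 7420 abundant genes, 26.3% in their GSK343-labelled and 14.9% in their shEZH2-labelled library fell above or below both other lines, against 57.2% in their control. Among the members the numbers were 1, 2 and 6. Fitted as a weighted sum of the MDA-MB-231 and MDA-MB-436 libraries over the abundant genes, the GSK343-labelled library took weights of 0.86 and 0.14. The shEZH2-labelled library took 0.56 and 0.47, and the control 0.45 and 0.47. Whether the labelled libraries mix the other lines was not tested, so their worth as separate replicates is not settled. Mitochondrial transcripts made up 13.7% to 22.5% of the RPKM total in GSK343-labelled libraries and 13.5% to 16.8% in shEZH2-labelled ones, against 14.0% to 17.6% in controls.

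The values are RPKM, which divides reads by gene length and library size. The length is that of all annotated exons of a gene merged, 3340 bases for SRSF1 and 7118 for SRSF3. Ranks of genes by RPKM thus depend on the annotation. Estimated reads of SRSF3 were above those of SRSF1 in every control (6566, 5359 and 6579 against 4253, 4592 and 5593). SRSF1, which binds purine-rich exonic enhancers and acts as an oncogene in breast cells, had the highest RPKM of the members in the controls, 87.3 ± 14.7 RPKM (SD, n = 3). SRSF2, an enhancer-binding factor of nuclear speckles, followed at 60.5 ± 6.52 RPKM and SRSF3, the smallest SR protein and an adaptor for mRNA export, at 52.4 ± 6.65 RPKM. The control libraries of SRSF1 did not overlap those of SRSF2, while those of SRSF2 and SRSF3 did. SRSF7, an export adaptor with a zinc knuckle, averaged 41.3 ± 4.7 RPKM, and SRSF6 averaged 36.3 ± 10.6 RPKM. SRSF5, SRSF9, SRSF11 and SRSF4 lay between 21.6 and 26.2 RPKM with overlapping libraries. SRSF10, which represses splicing when it is dephosphorylated, had the lowest RPKM, 15.1 ± 3.4 RPKM.

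**Figure D1:**
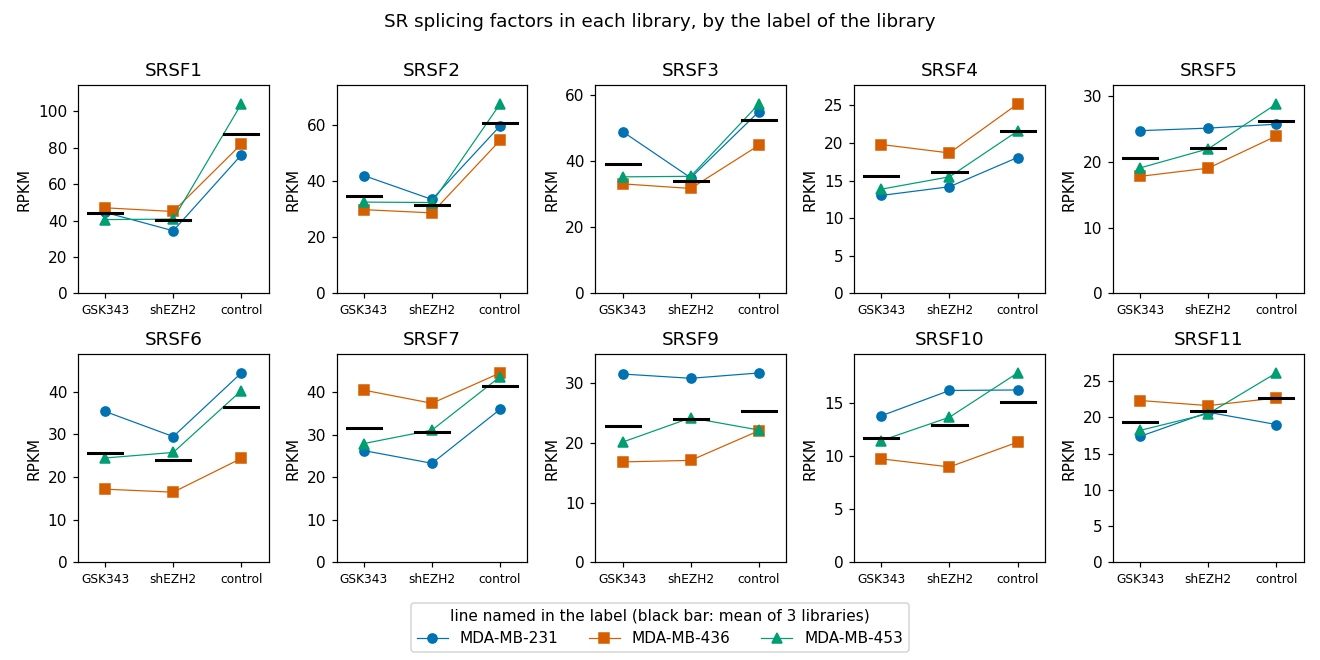
RPKM of each member in each library (y axes from 0), with GSK343-labelled, shEZH2-labelled and control libraries along x, a colour and marker for each line, and black bars for the mean of 3 libraries. SRSF1 and SRSF2 are below every control in all 6 labelled libraries, while SRSF9 is highest in MDA-MB-231 in every group.

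The summed RPKM of the 10 members was 298, 254 and 244 under the GSK343 label. In the shEZH2-labelled libraries it was 263, 245 and 261, against 382, 355 and 429 in the controls. All 6 labelled libraries were thus below all 3 controls. In bulk RNA, fewer cells with a transcript and less of it per cell cannot be told apart. SRSF1 made up 13.1% to 18.5% of this summed RPKM in the 6 labelled libraries, against 19.9% to 24.2% in the controls. By RPKM it ranked above the other members in every control and in 4 of the 6 labelled libraries. In both labelled libraries of MDA-MB-231 the highest member was SRSF3.

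SR gene expression was then set against the controls for each label, within lines. The family was put forward with these differences known, SRSF1 among them, so the values and calls of this comparison describe the members and support nothing. A call means a Benjamini-Hochberg adjusted p under 0.05 in limma over 12965 genes, with line as a term of the model. Log2 fold changes are those of RPKM + 1, and ± gives the half-width of the 95% interval. All comparisons with control use the same 3 control libraries.

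SRSF1 lies on chromosome 17 at 58003360 to 58007346 (minus strand, GRCh38, GENCODE release 29). It had 44.5, 47.0 and 40.5 RPKM under the GSK343 label and 34.4, 45.0 and 40.8 RPKM under the shEZH2 label, against 76.0, 81.9 and 104 RPKM in the controls. Every labelled library was below every control, and the control labelled MDA-MB-453 was the highest library. The log2 fold change was -0.96 ± 0.34 under the GSK343 label (1.95-fold lower, adjusted p = 0.00467) and -1.10 ± 0.34 under the shEZH2 label (2.14-fold lower, adjusted p = 0.00238). As a share of the control of the same line, SRSF1 stood at 58.5%, 57.4% and 39.0% under GSK343 and at 45.3%, 54.9% and 39.2% under shEZH2. Without the libraries labelled MDA-MB-453 the log2 fold changes were -0.77 and -0.99, and neither passed (adjusted p = 0.0791 and 0.06). Exons of SRSF1 share 1890 bases with AC015813.2 on the same strand, which is listed at 0 in every library, and 440 bases with AC015813.5 on the opposite strand (0.217 to 0.861 RPKM). How reads in shared exons were counted is not known here. That 0 thus does not show that no reads of SRSF1 were lost.

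SRSF2, also on the minus strand of chromosome 17 (76734115 to 76737374), had values close in pattern to SRSF1. Its values were 42.0, 29.8 and 32.5 RPKM in the GSK343-labelled and 33.5, 28.7 and 32.4 RPKM in the shEZH2-labelled libraries, against 59.6, 54.5 and 67.5 RPKM in the controls, again without overlap. The log2 fold change was -0.79 ± 0.31 under GSK343 (adjusted p = 0.00853) and -0.92 ± 0.31 under shEZH2 (adjusted p = 0.00421). Without the libraries labelled MDA-MB-453 it was -0.67 and -0.86 and did not pass (adjusted p = 0.104 and 0.0732). Leaving out one library alone, that of MDA-MB-453 under GSK343, also ended the GSK343 call. Exons of SRSF2 overlap those of MFSD11 on the opposite strand over 1106 bases. MFSD11 was between 1.38 and 2.23 RPKM in all libraries, against 28.7 to 67.5 RPKM for SRSF2. Another 99 bases are shared with MIR636 on the same strand. As for SRSF1, low values of an overlapping gene do not show that no reads of SRSF2 were lost.

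The export adaptors SRSF3 and SRSF7 were lower in all 6 labelled libraries than in the control of the same line. SRSF3 (chromosome 6, 36594353 to 36605600, plus strand) had 49.0, 33.2 and 35.3 RPKM under GSK343 and 35.0, 31.8 and 35.5 RPKM under shEZH2, against 55.04, 44.9 and 57.4 RPKM in controls. Its shEZH2-labelled libraries did not overlap the controls (log2 fold change -0.60 ± 0.32, adjusted p = 0.0255), whereas the GSK343-labelled ones did (-0.42 ± 0.32, adjusted p = 0.0973). The shEZH2 call was lost without the control of MDA-MB-453 or without any single shEZH2-labelled library, and without all libraries of MDA-MB-453 the adjusted p was 0.131. SRSF7 (chromosome 2, 38743599 to 38751494, minus strand) had 26.3, 40.4 and 27.9 RPKM under GSK343 and 23.3, 37.4 and 31.1 RPKM under shEZH2, against 35.9, 44.5 and 43.6 RPKM in controls. The groups of SRSF7 overlapped, with MDA-MB-436 the highest line under both labels, and neither log2 fold change passed (-0.40 ± 0.32 and -0.44 ± 0.32, adjusted p = 0.107 and 0.0702).

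SRSF4, SRSF5 and SRSF6 are close relatives that act on exonic enhancers. SRSF6 (chromosome 20, 43457928 to 43464247, plus strand) had 35.4, 17.2 and 24.5 RPKM under GSK343 and 29.5, 16.5 and 25.8 RPKM under shEZH2, against 44.4, 24.4 and 40.2 RPKM in controls. The groups overlapped, yet each labelled library was below the control of its own line. The log2 fold change was -0.50 ± 0.30 under GSK343 (adjusted p = 0.0453) and -0.58 ± 0.30 under shEZH2 (adjusted p = 0.0213). The GSK343 call was lost without any single one of the 9 libraries, and the shEZH2 call without the control of MDA-MB-453 or any shEZH2-labelled library. Without all libraries of MDA-MB-453 the adjusted p was 0.228 under GSK343 and 0.12 under shEZH2. SRSF4 (chromosome 1, 29147743 to 29181987, minus strand) had 13.04, 19.8 and 13.9 RPKM under GSK343 and 14.2, 18.7 and 15.5 RPKM under shEZH2, against 18.1, 25.2 and 21.6 RPKM in controls. Its log2 fold changes, -0.46 ± 0.29 and -0.40 ± 0.29, did not pass (adjusted p = 0.0542 and 0.0743). SRSF5 (chromosome 14, 69726900 to 69772005, plus strand) had 24.8, 17.8 and 19.1 RPKM under GSK343 and 25.2, 19.1 and 22.0 RPKM under shEZH2, against 25.8, 24.0 and 28.8 RPKM in controls. In MDA-MB-231 SRSF5 thus stood at 96.2% and 97.7% of its control, and neither fold change passed (-0.34 ± 0.31 and -0.24 ± 0.31).

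The other members had the smallest differences. SRSF9, a relative of SRSF1 with a short tail (chromosome 12, 120461668 to 120469793, minus strand), had 31.6, 16.8 and 20.2 RPKM under GSK343 and 30.9, 17.1 and 24.2 RPKM under shEZH2, against 31.8, 22.1 and 22.2 RPKM in controls. Its shEZH2-labelled library of MDA-MB-453 was above the control, and its log2 fold changes were -0.17 ± 0.31 and -0.09 ± 0.31. SRSF9 exons overlap those of GATC on the opposite strand over 1729 bases. GATC was between 9.83 and 13.4 RPKM, so without knowledge of the strand setting the values of SRSF9 are uncertain. SRSF10 (chromosome 1, 23964804 to 23980927, minus strand) had 13.8, 9.76 and 11.5 RPKM under GSK343 and 16.2, 9.0 and 13.7 RPKM under shEZH2, against 16.3, 11.3 and 17.9 RPKM in controls (log2 fold changes -0.34 ± 0.31 and -0.22 ± 0.31). SRSF11, an atypical member that contacts the 3′ splice site factor U2AF (chromosome 1, 70205682 to 70253052, plus strand), had 17.4, 22.3 and 18.2 RPKM under GSK343 and 20.7, 21.6 and 20.51 RPKM under shEZH2, against 19.0, 22.7 and 26.1 RPKM in controls. Its shEZH2-labelled library of MDA-MB-231 was above the control, and neither fold change passed (-0.21 ± 0.32 and -0.09 ± 0.32). For SRSF5, SRSF9, SRSF10 and SRSF11 the adjusted p was between 0.154 and 0.483 under GSK343 and between 0.291 and 0.719 under shEZH2.

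**Figure D2:**
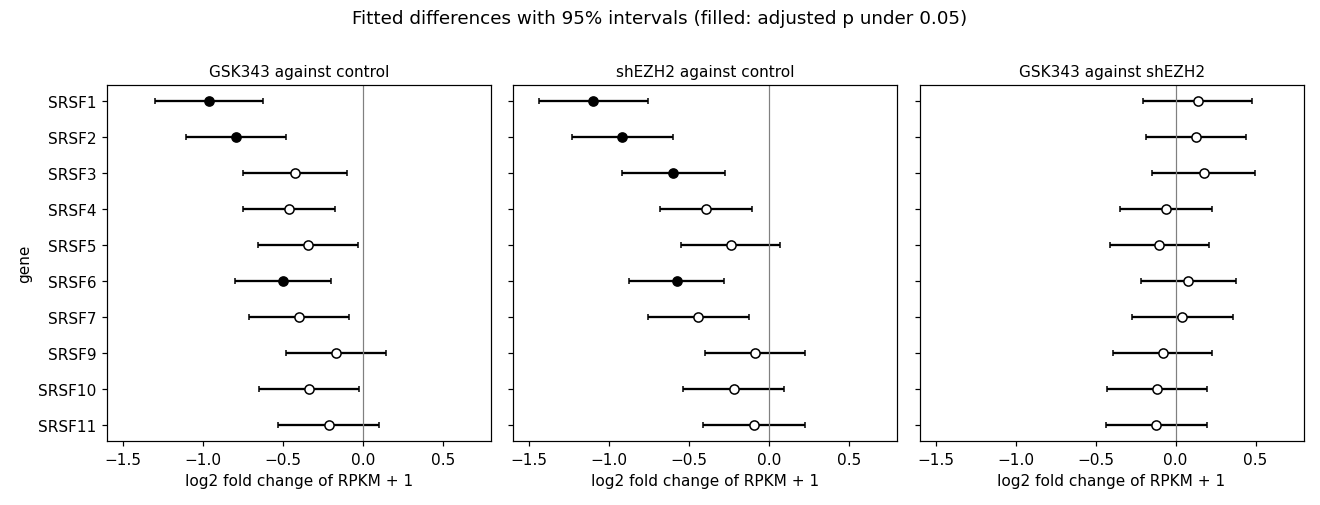
Log2 fold change of RPKM + 1 for each member (x axis, bars are 95% intervals) for GSK343 against control, shEZH2 against control and GSK343 against shEZH2, with filled points where the adjusted p was under 0.05. All 10 estimates against control are below 0 under both labels, and all 10 intervals of GSK343 against shEZH2 hold 0.

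Counted over the family, 3 of 10 members were called lower under GSK343 (SRSF1, SRSF2 and SRSF6), where 1.60% of all tested genes were. Under shEZH2 the number was 4 (these and SRSF3), where 2.28% of all genes were. For the mean of both labels it was 6 (with SRSF4 and SRSF7), where 4.30% of all genes were. By limma the log2 fold change for that mean was -0.43 ± 0.25 for SRSF4 (adjusted p = 0.0268) and -0.42 ± 0.27 for SRSF7 (adjusted p = 0.0405). Of 12 fits that left out a library or a line, 9 lost the call of SRSF4 and 11 that of SRSF7. No member was called higher, where 6.25% of all genes were under GSK343, 8.35% under shEZH2 and 12.2% for the mean of both. After median-ratio rescaling the members called lower were 5, 6 and 6, where 3.44%, 4.81% and 8.93% of all genes were. On a common-sum (TPM) scale they were 2, 4 and 4, where 0.687%, 0.858% and 2.15% of 17602 genes were. In that setting the GSK343 call of SRSF6 and the calls of SRSF4 and SRSF7 for the mean of both were lost. The filter and the added 1 there apply to rescaled values, so more genes were tested. The loss thus cannot be put to the scale alone. The median log2 fold change of the 10 members was -0.41 under GSK343 and -0.42 under shEZH2, against 0.06 and 0.05 over all genes tested. Without the libraries labelled MDA-MB-453, 0 members passed under either label (0.0482% and 0.0161% of all genes) and 2, SRSF1 and SRSF2, for the mean of both (0.193%). Without the filter on low values 0, 0 and 2 members passed under GSK343, shEZH2 and their mean, where 1, 0 and 26 of 36845 genes were called lower. Without line as a term 0 members and 0 of 12965 genes were called lower in each. The loss of calls under both settings thus ran through the whole table. The GSK343-labelled libraries all lay below all 3 controls for 2 members (3.03% of all genes) and the shEZH2-labelled ones for 3 (4.48%). All 6 did so for 2 members, SRSF1 and SRSF2, and for 2.14% of all genes. Each labelled library was below the control of its own line for 8 members and for 10.5% of all genes.

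Within lines, the median difference of the 10 members in log2(RPKM + 1) under GSK343 was -0.27, -0.39 and -0.61. Under shEZH2 these medians were -0.45, -0.38 and -0.46. The median over all tested genes was between 0.00 and 0.10 in these 6 pairs of libraries. SRSF1 had the largest decrease in MDA-MB-231 and MDA-MB-453 under both labels, and SRSF2 in MDA-MB-436. The control labelled MDA-MB-453 was above both other controls for 6 members (SRSF1, SRSF2, SRSF3, SRSF5, SRSF10 and SRSF11). After median-ratio rescaling, which a few abundant transcripts such as the mitochondrial ones do not set, SRSF1 was at -1.07 under GSK343 and -1.20 under shEZH2.

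**Figure D3:**
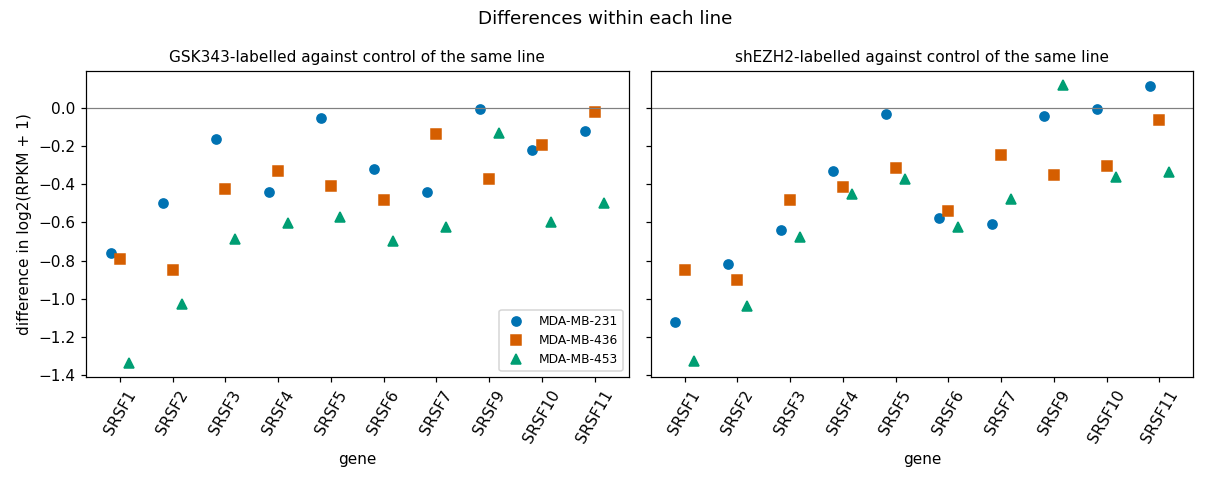
Difference in log2(RPKM + 1) between each labelled library and the control of the same line (y axis) for each member (x axis), with a colour and marker for each line. SRSF1 lies between -0.76 and -1.34 in all 6 libraries, and the points above 0 are SRSF11 in MDA-MB-231 (0.12) and SRSF9 in MDA-MB-453 (0.12), both under shEZH2.

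The labels were then compared with each other. Limma called 0 of 10 members and 0 of 12965 genes (0.00%) between GSK343 and shEZH2, and 0 members had an unadjusted p under 0.05. For SRSF1 the log2 difference was 0.14 (95% interval -0.20 to 0.48), for SRSF2 0.13 (-0.19 to 0.44) and for SRSF3 0.18 (-0.15 to 0.50). Differences of up to 0.50 on the log2 scale thus lie within these intervals. SRSF1 was lower under shEZH2 than under GSK343 in MDA-MB-231 and MDA-MB-436, and the values of MDA-MB-453 were nearly the same, 40.5 RPKM under GSK343 and 40.8 RPKM under shEZH2.

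Levels between lines were not used to choose the members. Limma's F-test on the line terms called 5 of 10 members and 58.9% of all tested genes. SRSF6 differed most (adjusted p = 0.000461). It averaged 36.4 ± 7.51 RPKM in MDA-MB-231, 30.2 ± 8.76 in MDA-MB-453 and 19.3 ± 4.38 in MDA-MB-436 (SD over 3 conditions), in the same order in every condition. SRSF9 averaged 31.4 ± 0.473, 22.2 ± 2.03 and 18.7 ± 2.94 RPKM in the same order of lines (adjusted p = 0.00259) and SRSF10 15.4 ± 1.39, 14.3 ± 3.24 and 10.0 ± 1.19 RPKM (adjusted p = 0.00961).

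SRSF4 and SRSF7 had the opposite order. SRSF7 averaged 40.8 ± 3.57 RPKM in MDA-MB-436, 34.2 ± 8.3 in MDA-MB-453 and 28.5 ± 6.62 in MDA-MB-231 (adjusted p = 0.024), and SRSF4 21.2 ± 3.48, 17.0 ± 4.07 and 15.1 ± 2.64 RPKM (adjusted p = 0.0241). For each of these 5 genes the MDA-MB-453-labelled mean lay between the other 2. Without those libraries the same 5 genes passed, beside 64.5% of all genes (adjusted p between 0.000396 and 0.00849). Without the libraries of MDA-MB-231, 2 passed (SRSF6 and SRSF10), beside 31.1% of all genes, and without those of MDA-MB-436, 1 (SRSF9), beside 30.9%. After median-ratio rescaling 3 passed (SRSF6, SRSF9 and SRSF10), beside 58.8% of all genes. SRSF1, SRSF2, SRSF3, SRSF5 and SRSF11 did not pass (adjusted p between 0.176 and 0.465).

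Whether the response differs between lines was tested in a model of line by state, control or labelled. Its error is the spread between the GSK343-labelled and the shEZH2-labelled library of a line. Spread between controls is not in it. Limma's F-test called 0 of 10 members and 3 of 12965 genes (0.0231%), and 0 members had an unadjusted p under 0.05. The smallest adjusted p was 0.254, for SRSF5. Without the libraries labelled MDA-MB-453 it called 0 members and 0.00% of genes. This test leaves 3 residual degrees of freedom. It called SRSF1, SRSF2 and SRSF3 once the shEZH2-labelled library of MDA-MB-231 was left out, where it called 32.3% of all genes. It called SRSF1 when that line's GSK343-labelled library (31.4% of all genes) or all of that line (28.0%) was dropped. The members' share was thus at or below that of all genes.

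Genes that work with SR proteins were counted from 5 further lists. These lists, the hnRNP genes among them, were also chosen with earlier results of these data known. Their counts thus describe the lists and support nothing. Of 28 SR-related proteins 4 fell for the mean of both labels, where 4.30% of all genes did, and 0 rose (median log2 fold change -0.22, against 0.05 over all genes). TRA2B, an SR-like activator of exon inclusion, fell (log2 fold change -0.64 ± 0.26, adjusted p = 0.00526), as did PNN, a speckle protein that associates with the exon junction complex (-0.63 ± 0.28, adjusted p = 0.00933), and RBM25, a regulator of splice site choice (-0.59 ± 0.28, adjusted p = 0.012). Of 12 kinases, phosphatase subunits and the import receptor of SR proteins 1 fell, and the median was -0.10. It was PPP1CC, a catalytic subunit of protein phosphatase 1 (-0.50 ± 0.28, adjusted p = 0.0235). A count of 1 is near the 4.30% of all genes that fell. The SR kinase CLK3 (0.36 ± 0.27, adjusted p = 0.0625) and the splicing kinase PRPF4B (-0.37 ± 0.34, adjusted p = 0.128) did not pass.

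The hnRNP proteins, many of which oppose SR proteins at splice sites, held the most calls. Of 24 hnRNP genes 15 fell and 0 rose for the mean of both labels, with a median of -0.52, where 4.30% of all genes fell and 12.2% rose. HNRNPD, which also promotes the decay of AU-rich mRNAs, averaged 33.7 RPKM under GSK343 and 31.6 RPKM under shEZH2, against 62.8 RPKM in controls (-0.91 ± 0.26, adjusted p = 0.000937). HNRNPA2B1 averaged 98.6 RPKM under GSK343 and 100.9 RPKM under shEZH2, against 167 RPKM in controls (-0.74 ± 0.26, adjusted p = 0.00276), and HNRNPA3 had -0.76 ± 0.26 (adjusted p = 0.00255). Under the single labels 10 of 24 fell for GSK343 (1.60% of all genes) and 13 for shEZH2 (2.28%). Without the libraries labelled MDA-MB-453, 2 of 24 passed for the mean of both (0.193% of all genes).

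Of 34 tested core spliceosome genes 6 fell and 0 rose (median -0.21), where 4.30% of all genes fell and 12.2% rose. Among the 6 were the Sm proteins SNRPD1 (-0.58 ± 0.26, adjusted p = 0.00905), SNRPE (-0.63 ± 0.32, adjusted p = 0.0162) and SNRPF (-0.56 ± 0.31, adjusted p = 0.0218). Of 14 factors of nonsense-mediated decay and the exon junction core 1 fell, the helicase EIF4A3 (-0.44 ± 0.28, adjusted p = 0.0345), and the median was -0.04. That count is near the 4.30% of all genes that fell. MAGOH (-0.33 ± 0.25, adjusted p = 0.0708) and SMG5 (0.28 ± 0.30, adjusted p = 0.189) did not pass. Without the libraries labelled MDA-MB-453, 0 SR-related, kinase, core spliceosome or decay genes were called lower for the mean of both labels. In that fit 0.193% of all genes were, so a count of 0 is near the share of all genes.

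**Figure D4:**
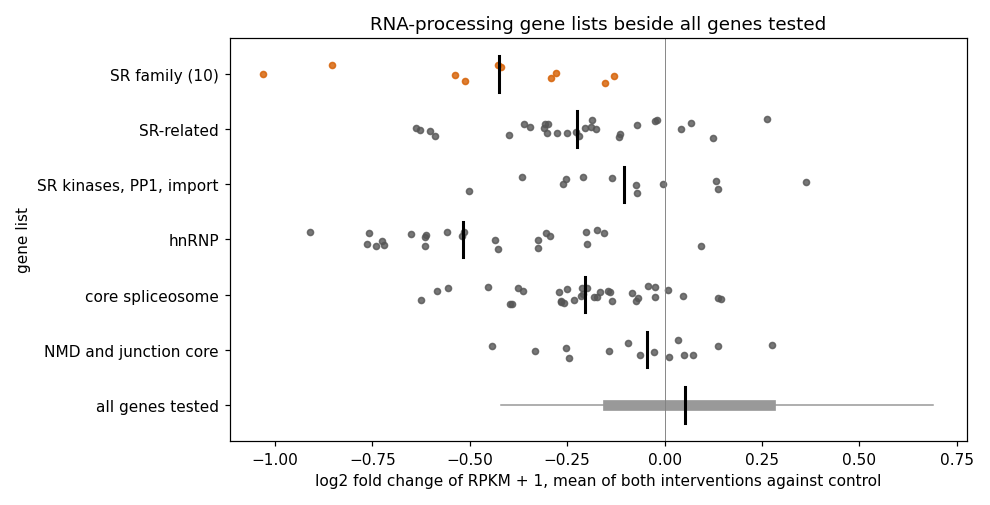
Log2 fold change of RPKM + 1 for the mean of both labels against control (x axis) for each tested gene of 6 lists (points, vertical offset only for legibility), with black bars for medians and, for all genes tested, the middle 50% (thick) and 90% (thin). The medians are -0.42 for the SR family, -0.52 for the hnRNP genes and 0.05 for all genes tested. The family was chosen by its values, and the other lists with earlier results of these data known.

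Likeness among members varied. After each line's mean was subtracted from log2(RPKM + 1), SRSF1 correlated over the 9 libraries with SRSF6 (Pearson r = 0.991), SRSF2 (0.987), SRSF3 (0.964), SRSF7 (0.952) and SRSF4 (0.939). SRSF10 and SRSF11 were nearest to each other (0.922) and SRSF5 to SRSF10 (0.902). With SRSF1 itself, SRSF5 had 0.827, SRSF10 0.776 and SRSF11 0.586. SRSF9 had 0.425 to SRSF1, its highest value, 0.647, to SRSF5, and its lowest, 0.204, to SRSF11. These correlations describe 9 libraries that share the same 3 controls, depth and scaling, and they carry no test.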

How the data were processed

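The authors deposited 1 table of RPKM (reads scaled to gene length and library size) with 9 columns, all mapped to samples by their headers (0 unused columns). Reads went through STAR and HTSeq on GRCh38, per the submitters' processing notes. For versions, annotation and strand setting nothing is given in the sources used here. Low RPKM multiplied by GENCODE release 29 exon lengths were whole multiples of 1 read (100% within 0.05 of a read, 92.5% of identifiers shared), which gave the depth.

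Genes with RPKM of at least 1 in at least 3 libraries (12965) were put on the log2(RPKM + 1) scale for limma 3.58.1 (R 4.3.3), with treatment and line as terms, a mean-variance trend and 4 residual degrees of freedom. Log2 fold changes and p-values come from this fit. P-values are two-sided, adjusted over all tested genes by the Benjamini-Hochberg method, threshold 0.05. The script was tested on simulated data. Lines pair the samples by their labels. Deviations from group means correlated between 0.358 and 0.953 within a line and between -0.914 and 0.0903 across lines. Deviations within a group cancel out, which by itself pulls the values across lines down. That range is thus no separate sign of pairing.

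Members and lists were chosen with earlier results of these data known. All members are reported. From each other list the 3 genes with the smallest p for the mean of both labels are named. Likeness was ranked over genes of mean RPKM at least 5. Alternatives were other pseudocounts, filters, scalings, moderation, no block, fewer groups, and leaving out libraries or lines.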

Additional observations from a re-analysis of the deposited data

How the results depend on the processing

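Counts of called members depended on the setting. Without a filter on low values the counts were 0 for GSK343, 0 for shEZH2 and 2 for the mean of both labels. Without the replicate block they were 0 in each of the 3. Median-ratio rescaling gave 5 under GSK343 and, for differences between lines, 3. The causes were not tested. Leaving out single libraries or lines gave 0 to 2 members under GSK343, 0 to 5 under shEZH2, 2 to 6 for the mean of both, 0 for GSK343 against shEZH2, 1 to 5 for levels between lines and 0 to 3 for responses between lines. On the common-sum scale SRSF7 in GSK343 against shEZH2 turned to -0.026 (0.043 as reported). Left-out libraries turned the sign of uncalled values, with ranges of -0.20 to 0.037 for SRSF11 and -0.19 to 0.041 for SRSF9 under shEZH2. In GSK343 against shEZH2 the ranges were -0.0085 to 0.17 for SRSF6, -0.040 to 0.15 for SRSF7 and -0.16 to 0.015 for SRSF9. All 10 members stayed below control under both labels at each pseudocount, filter, scaling and moderation tried. With 1 library per line and label, culture variation was not measured. Response between lines could not be fitted without a control. A fit of the groups compared alone was not run for the mean of both labels, which uses all libraries.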

Other observations

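SRSF8, a close copy of SRSF2, averaged a lower RPKM than each of the 10 members in every group. It had 11.4, 5.29 and 6.80 RPKM under GSK343 and 7.94, 5.47 and 8.50 RPKM under shEZH2, against 12.1, 6.39 and 8.98 RPKM in the controls. Its log2 fold changes by limma were -0.22 ± 0.34 (adjusted p = 0.397) and -0.27 ± 0.34 (adjusted p = 0.284). SRSF12 was at most 0.212 RPKM and was not tested. Of the pseudogenes named after a member, SRSF9P1 reached 0.901 RPKM, SRSF1P1 0.105 and SRSF10P1 0.0781.

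Among 7410 abundant genes, those closest to SRSF1 over the 9 libraries with line means subtracted were SYNCRIP, an hnRNP protein (r = 0.995), PSMD1 of the proteasome (0.993), the nuclear pore protein SEH1L (0.992), METAP1, which removes initiator methionine (0.992), and C2orf47 (0.991). Closest to the mean of the 10 members were the GTPase CDC42 (0.994), HNRNPA3 (0.993), the nucleolar protein NPM1 (0.993), the co-chaperone PTGES3 (0.993) and KHDRBS1, an RNA-binding signalling protein (0.992). These values describe the same 9 libraries and were picked as the highest of 7410, so they carry no test.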
